A study of Mus musculus with 4 samples.

Results

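The mitochondrial ribosomal protein genes were followed in mouse liver after a diet with trans-10, cis-12 conjugated linoleic acid (CLA). They were taken as every array probe, outside the control spots, whose description in the scanner files contains the words "mitochondrial ribosomal protein" in any case. This gave 55 of 20868 probes, with 1 spot each on every array. By name, 35 belonged to the large subunit of the mitochondrial ribosome, 19 to the small subunit, and 1 was a pseudogene of the large-subunit protein L48. No gene had more than 1 of these probes. RefSeq accessions named 36 probes and the protein name in the description named 12 more. A further 6 were described only as similar to, or a homolog of, a mitochondrial ribosomal protein (L22, L24, L32, L41, S4 and S35), and are called L32-similar and so on below.

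All mice were males of a polygenic obese line, and liver RNA was taken on day 14. Treated mice ate 1% of the CLA isomer in their diet and control mice ate 1% linoleic acid. Each of 4 two-colour Agilent oligonucleotide arrays compared 1 CLA sample with 1 control sample, each a pool of 4 or 5 mice. Arrays 1 and 2 had the CLA sample in Cy5, the red dye, and arrays 3 and 4 had it in Cy3, the green dye. Whether any of them share a pool is not in the labels, so p-values measure only the spread between 4 arrays, which may be technical.

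The mitochondrial ribosome translates the few messages of the mitochondrial genome, all of which encode subunits of the respiratory chain and the ATP synthase. All its proteins are encoded in the nucleus, made in the cytosol and imported. Some have a counterpart in the bacterial ribosome and others are found only in mitochondria, and their genes are commonly under the transcription factors NRF1, GABP (an ETS factor) and YY1. Liver tissue is rich in mitochondria. In a bulk sample, fewer cells of a type and less RNA per cell cannot be told apart.

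Because these factors are known regulators of the family, the 250 bases before the transcription start were searched, on both strands, for the letters of 3 sites. These were GCGCA, any 1 base and GCGC (NRF1), CCGGAAG (ETS) and AANATGGCG (YY1). Of 48 named member genes, 42 had a promoter in RefSeq (GRCm38.p6). NRF1 letters stood in 7 of the 42 (16.7%) against 4.23% of 27025 genes, ETS letters in 11 (26.2%) against 7.83%, and YY1 letters in 2 (4.76%) against 1.29%. At least 1 of the 3 stood in 19 of 42 (45.2%) against 12.2% of all genes, which describes letters in a window and not binding. The 3 promoters below, all on the plus strand with the NRF1 letters (or their reverse complement) in capitals, belong to genes at both ends of the range of diet effects. They are Mrpl12 (chr11:120484387-120484636), Mrpl9 (chr3:94443086-94443335) and Mrpl57 (chr14:57825989-57826238), each written 5′ to 3′.
Mrpl12: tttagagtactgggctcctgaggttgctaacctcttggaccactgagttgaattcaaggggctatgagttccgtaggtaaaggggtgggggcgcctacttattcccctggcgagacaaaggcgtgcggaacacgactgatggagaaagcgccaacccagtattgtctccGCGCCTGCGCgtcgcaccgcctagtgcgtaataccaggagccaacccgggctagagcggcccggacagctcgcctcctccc
Mrpl9: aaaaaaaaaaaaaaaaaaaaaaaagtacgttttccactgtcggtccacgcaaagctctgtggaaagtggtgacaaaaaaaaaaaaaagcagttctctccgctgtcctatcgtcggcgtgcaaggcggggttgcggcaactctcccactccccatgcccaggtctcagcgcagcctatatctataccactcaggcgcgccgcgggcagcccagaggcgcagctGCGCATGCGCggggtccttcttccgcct
Mrpl57: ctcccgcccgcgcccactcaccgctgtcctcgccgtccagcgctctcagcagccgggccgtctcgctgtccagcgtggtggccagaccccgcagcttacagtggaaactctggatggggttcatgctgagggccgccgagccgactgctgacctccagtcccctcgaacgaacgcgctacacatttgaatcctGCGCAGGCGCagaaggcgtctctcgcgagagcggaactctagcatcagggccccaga
Mrpl12 and Mrpl9 had diet effects above 0 and Mrpl57 had one below 0, as given further on. These 3 were picked for the size of their diet effects. The other members with NRF1 letters, Mrpl17, Mrpl39, Mrpl45 and Mrps21, had diet effects of -0.056, -0.025, 0.074 and 0.0045. The promoters of Mrps6 and Mrps25, which had the highest and the lowest diet effect of all members, held none of the 3 sets of letters in this window.

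Nearly all members gave a clear signal in liver. A spot counts as well above background where the scanner flagged it so, and 51 of the 55 probes were well above background in both diets on all 4 arrays. The other 4 were Mrps25, Mrpl15, Mrpl19 and L41-similar, and no member was saturated in any channel. In all, 54 members passed the filter for testing (well above background in at least 1 diet on 2 or more arrays), and Mrpl19 did not. Of the 54, 53 were measured on all 4 arrays, while the Mrps2 spot of array 2 was an outlier by the scanner's flag and was left out. Over all spots outside controls, 80.3% to 95.5% per array were well above background in CLA channels and 85.5% to 95.8% in control channels. Of 10 hepatocyte markers, 4 were matched to a probe by symbol (Apoa1, Pck1, Trf and Ttr), and all 4 were well above background in both diets.

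None of the 54 tested members passed the test for a diet effect. The background is low: 14 of 20214 probes (0.0693%) passed limma's moderated test at an adjusted p under 0.05, with 7 higher and 7 lower with CLA (0.0346% each). The lowest adjusted p of a member was 0.128, for Mrps6. At an unadjusted p under 0.05 there were 6 of 54 members, 3 above 0 (Mrps6, Mrpl12 and Mrpl9) and 3 below 0 (Mrpl57, Mrps25 and L32-similar), where the background was 15.9% of all probes. Mrps25 passed the filter only through its control channels. When both channels had to be well above background on all arrays, 5 of 51 members were under 0.05, beside 2978 of 16273 probes. The diet effect is the log2 ratio of CLA over control after each probe's own dye effect is taken out. It was above 0 for 32 members and below 0 for 22, with a median of 0.0063, against a median of 0.0060 over all probes tested (10572 above 0 and 9642 below).

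Both subunits lay around 0. Of 34 large-subunit members, 21 had a diet effect above 0 and 13 below (median 0.0087, range -0.22 to 0.25). Of 19 small-subunit members, 10 were above 0 and 9 below (median 0.0045, range -0.24 to 0.33). Mrps30 and Mrps18a carry small-subunit names but sit in the large subunit in structures of the mammalian ribosome, and with both moved the large-subunit median was 0.0077. Members with a number that also names a bacterial protein (up to L36 and S21) had a median of 0.0054 over 34 probes, and those with a higher number had 0.0069 over 19.

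The arrays set a limit on what could have been missed. The 95% intervals of the diet effect had a median half-width of 0.14 on the log2 scale and at most 0.21. For 47 of 54 members the interval lay wholly inside 0.3 on the log2 scale in either direction (1.23-fold), and for all 54 inside 0.5 (1.41-fold). The lowest bound of any member was -0.45 and the highest 0.49. These intervals cover the spread between arrays in this fit. They do not cover other ways of correcting background, nor a dye effect that differs in size between arrays. Mrps25 fell outside 0.5 under another correction, at -1.15 with the scanner's processed signals.

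**Figure D1:**
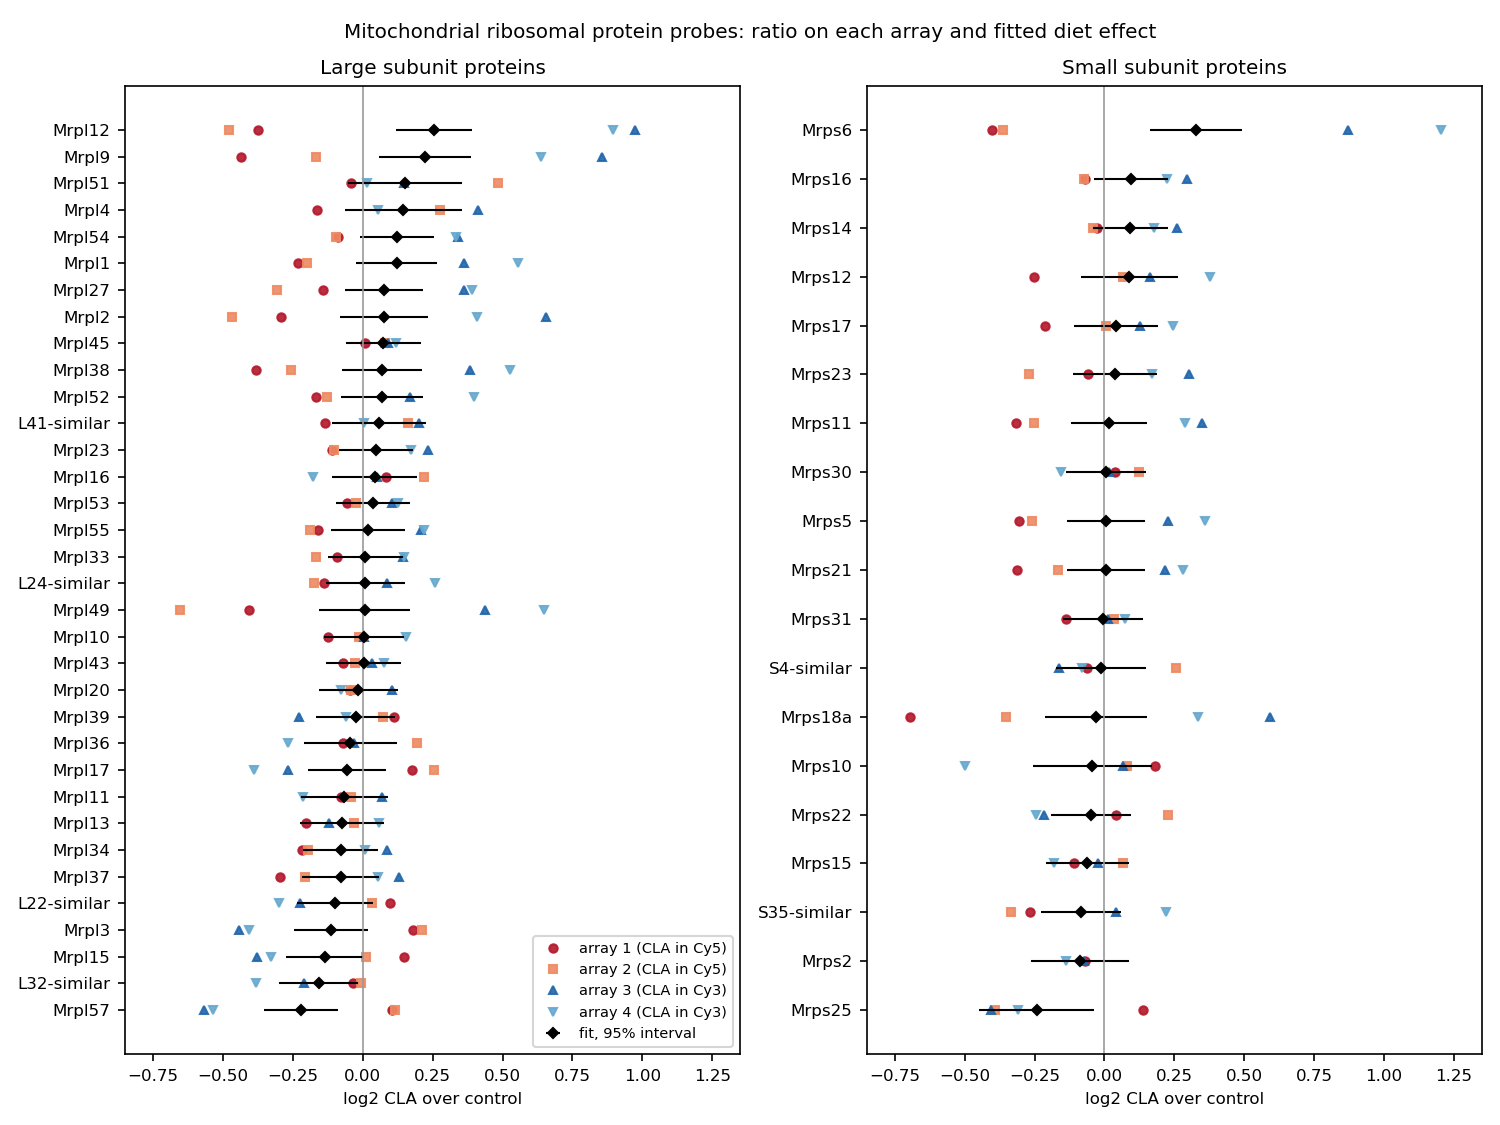
Log2 CLA over control of each tested large-subunit (left) and small-subunit (right) member on arrays 1 to 4 (coloured points) and the fitted diet effect with its 95% interval (black diamonds and bars). Points of arrays 1 and 2 (CLA in Cy5) and of arrays 3 and 4 (CLA in Cy3) lie on opposite sides of 0 for most members, and the fitted effects run from -0.24 (Mrps25) to 0.33 (Mrps6).

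What the members showed more clearly than a diet effect was which dye the sample carried. All ratios by array are after background correction and loess normalisation, but before any dye term. The median log2 CLA over control of the members was then -0.11 on array 1, -0.04 on array 2, 0.12 on array 3 and 0.12 on array 4. The same medians over all probes were -0.0074, -0.0014, 0.0066 and 0.012, which the loess step holds near 0. The ratio was below 0 for 42 of 54 members on array 1 and for 33 of 53 on array 2, but above 0 for 40 of 54 on array 3 and for 36 of 54 on array 4. In normalised signal, the Cy3 channel was therefore the brighter one for most members in both orientations, whichever diet it held. Raw signals above background did not follow this on array 3. There Cy5 was the higher one for most members, such as Mrpl20 (907 units in Cy3 and 1309 in Cy5).

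Only Mrpl45 and L32-similar kept 1 sign of normalised CLA over control on all 4 arrays. This is 2 of 53 members against a background of 9.33% of all probes. In normalised signal, Cy3 was brighter than Cy5 on all 4 arrays for 28 of 53 members (background 23.2%). Cy5 was brighter on all 4 for 7 (background 19.9%). In the fit, the dye effect (log2 Cy5 over Cy3) passed limma's test for 21 of 54 members, where 28.0% of all probes passed. Of the 21, 17 were brighter in Cy3 (background 15.8%) and 4 in Cy5 (background 12.3%). The median dye effect was -0.11 for the members and -0.00071 for all probes. Small-subunit members had a median dye effect of -0.15 and large-subunit members one of -0.08.

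**Figure D2:**
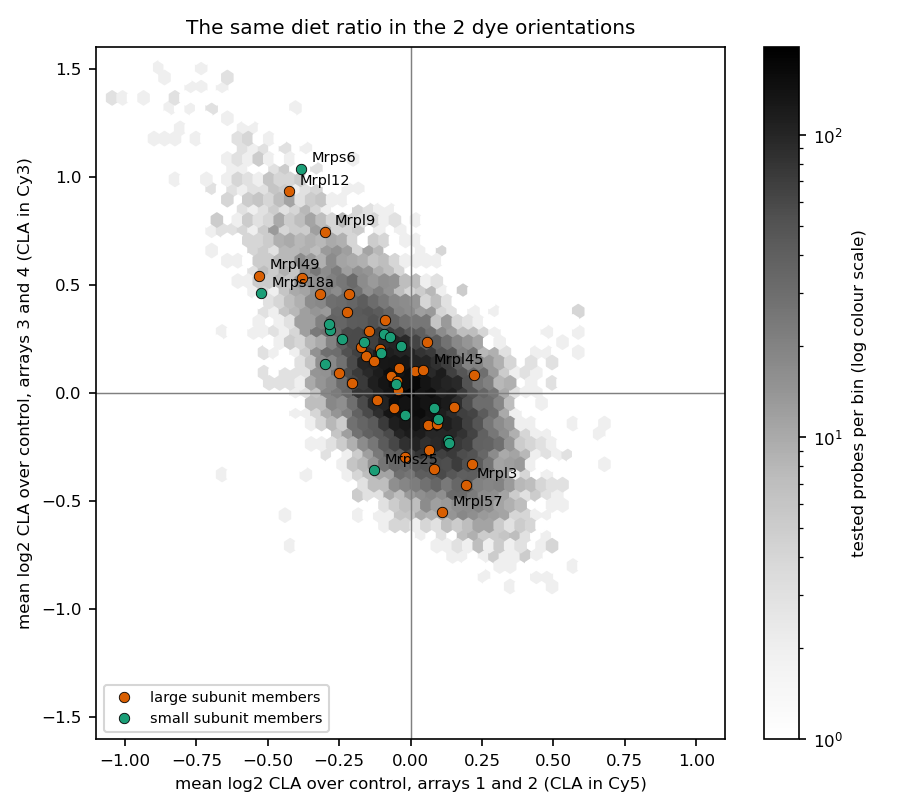
Mean log2 CLA over control on arrays 3 and 4 (vertical axis) against arrays 1 and 2 (horizontal axis) for members of the large and small subunit, over grey bins of all tested probes with probes beyond the axes left out. Mrps6, Mrpl12 and Mrpl9 lie in the upper left, where the ratio is below 0 with CLA in Cy5 and above 0 with CLA in Cy3, and Mrpl57 and Mrpl3 lie in the lower right.

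Mrps6, a small-subunit protein with a bacterial counterpart, had the highest diet effect of the members. Its normalised signal in CLA samples was 214, 519, 868 and 480.4 on arrays 1 to 4, against 282, 669, 475 and 208 in control samples. CLA was lower than control on arrays 1 and 2 and higher on arrays 3 and 4. The log2 CLA over control was -0.40, -0.36, 0.87 and 1.20, which gave a diet effect of 0.33 ± 0.07 (SE, n = 4 arrays, limma adjusted p = 0.128) beside a dye effect of -0.71. With the dye effect made equal in size on all arrays, the diet effect was 0.15 ± 0.06 (limma adjusted p = 0.526). By its construction, this step lowers the diet effect of a probe brighter in Cy3 and raises that of a probe brighter in Cy5.

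Mrpl12, the counterpart of the bacterial stalk protein L7/L12 that recruits translation factors, came next. Its normalised signal in CLA samples was 726, 674, 1325 and 786, against 942, 937, 675 and 422 in control samples. The groups overlapped, with CLA lower on arrays 1 and 2 and higher on arrays 3 and 4. The log2 ratios of -0.37, -0.48, 0.97 and 0.90 gave a diet effect of 0.25 ± 0.06 (SE, n = 4 arrays, limma adjusted p = 0.142) and a dye effect of -0.68. With the dye effect equalised it was 0.09 ± 0.06 (limma adjusted p = 0.615).

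Mrpl9, a large-subunit protein with a bacterial counterpart, followed the same pattern over the arrays. Its signal in CLA samples was 121, 162, 265 and 176, against 163, 182, 147 and 113 in control samples. Its diet effect was 0.22 ± 0.07 (SE, n = 4 arrays, limma adjusted p = 0.215) with a dye effect of -0.52, and 0.10 ± 0.07 with the dye effect equalised. All 3 probes were thus brighter in Cy3 on every array in normalised signal. Their ratios were further from 0 on arrays 3 and 4 than on arrays 1 and 2.

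Of the next 3 members by diet effect, Mrpl51 and Mrpl4 did not share that pattern and Mrpl54 did. Mrpl51, found only in mitochondrial ribosomes, had signals of 131, 189, 237 and 144 in CLA samples, against 135, 135, 214 and 142 in control samples. Its diet effect of 0.15 ± 0.09 (limma adjusted p = 0.419) came mainly from array 2, where log2 CLA over control was 0.48, while the other 3 arrays lay between -0.04 and 0.15, and it was 0.020 without array 2 and 0.28 without array 1. Mrpl4, the counterpart of a bacterial protein that lines the exit tunnel, had ratios of -0.16, 0.28, 0.41 and 0.06 and a diet effect of 0.15 ± 0.09 (limma adjusted p = 0.441). Without array 1, 2, 3 or 4 the diet effect of Mrpl4 was 0.25, 0.036, 0.056 and 0.24. Mrpl54, a large-subunit protein, had ratios of -0.09, -0.09, 0.34 and 0.33 and a diet effect of 0.12 ± 0.06 (limma adjusted p = 0.335).

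Mrpl57, a protein specific to the mitochondrial large subunit and listed in the files under its older name Mrp63, had the second lowest diet effect. Its signal in CLA samples was 115, 190.3, 134 and 112, against 107, 176, 199 and 162 in control samples. CLA was slightly higher on arrays 1 and 2 (log2 0.11 and 0.12) and lower on arrays 3 and 4 (-0.57 and -0.53), with overlap between the groups. The diet effect was -0.22 ± 0.06 (SE, n = 4 arrays, limma adjusted p = 0.168) and the dye effect 0.33. The diet effect was -0.14 ± 0.06 with the dye effect equalised.

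Mrpl3, a core protein near the catalytic centre, had the same arrangement. Its log2 CLA over control was 0.18, 0.21, -0.44 and -0.41, with a diet effect of -0.11 ± 0.06 (limma adjusted p = 0.360) and a dye effect of 0.31. Mrpl17, with a dye effect of 0.27, had a diet effect of -0.06 ± 0.06 and L22-similar one of -0.10 ± 0.06 (limma adjusted p = 0.649 and 0.420). In normalised signal, these probes were brighter in Cy5 on all 4 arrays, the opposite of Mrps6, Mrpl12 and Mrpl9.

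Of the pair with 1 sign on every array, L32-similar matches the large-subunit protein whose cleavage by a mitochondrial protease gates ribosome assembly. Its signal was 320.0, 474, 576 and 358 in CLA samples, against 327, 476, 666 and 466 in control samples. The ratio was close to 0 on arrays 1 and 2 (-0.03 and -0.0070) and lower on arrays 3 and 4 (-0.21 and -0.38). Its diet effect was -0.16 ± 0.06 (SE, n = 4 arrays, limma adjusted p = 0.274).

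Mrpl45, which anchors the ribosome at the inner membrane close to the exit tunnel, was the other. Its signal was 122, 126, 159 and 120.0 in CLA samples, against 121, 120, 150 and 110.5 in control samples. The log2 ratios of 0.01, 0.08, 0.09 and 0.12 were small, with a diet effect of 0.07 ± 0.06 (SE, n = 4 arrays, limma adjusted p = 0.529) and a dye effect of -0.03. CLA was the higher one on every array in normalised signal.

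**Figure D3:**
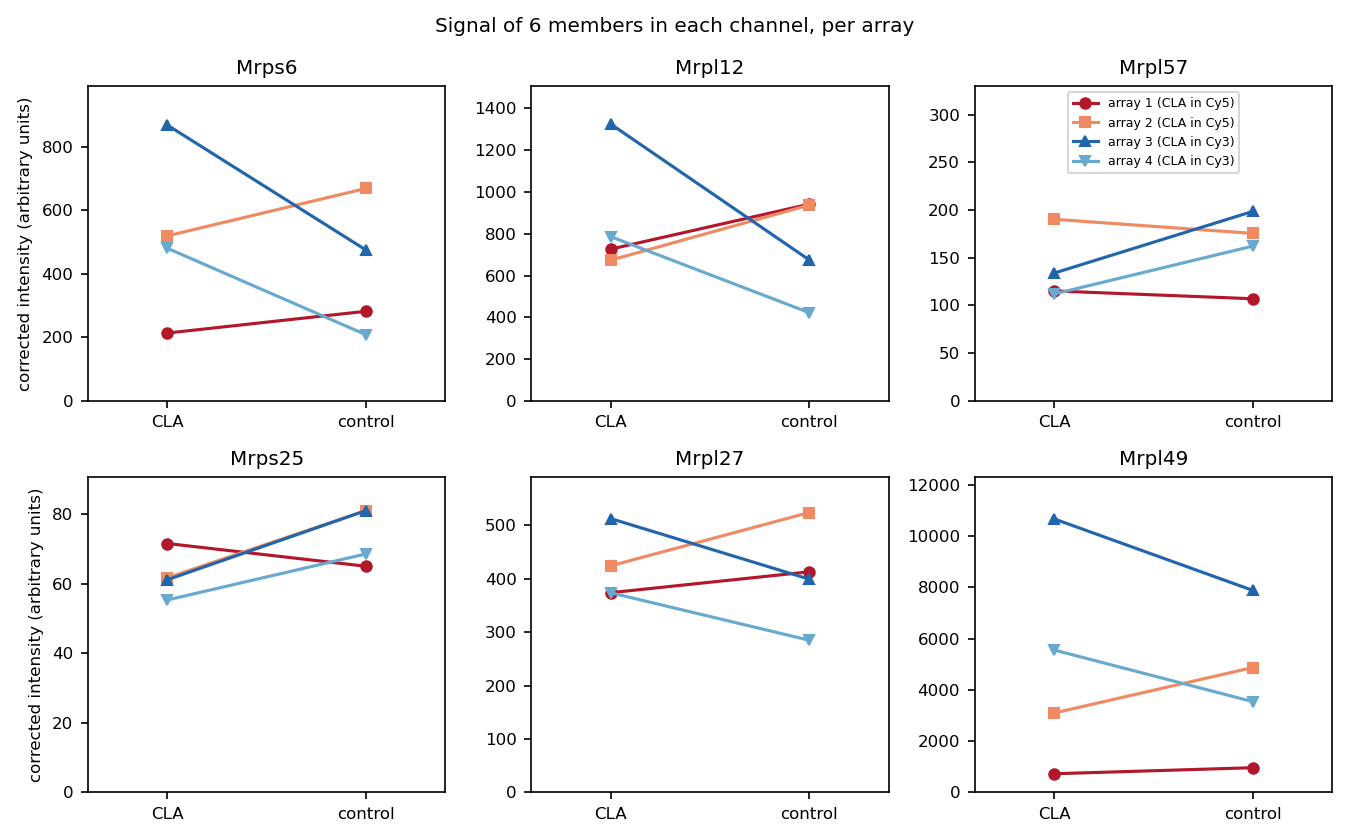
Normalised signal (arbitrary units, axes from 0) of 6 members in the CLA and the control channel, with 1 line per array. For Mrps6, Mrpl12, Mrpl27 and Mrpl49 the lines of arrays 1 and 2 run up toward control and those of arrays 3 and 4 run down, Mrps25 lies between 55.3 and 81.0 in every channel, and Mrpl49 differs more between arrays than between diets.

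Across the members, the size of the diet effect went with that of the dye effect. As a description over 54 probes that share the same 4 arrays, r between them was -0.70, and over all 20214 probes it was -0.53. The dye profile differed in size between the arrays: its slope on the profile averaged over arrays was 0.779 for array 1, 0.734 for array 2, 1.18 for array 3 and 1.30 for array 4. After it was made equal in size on all arrays, r was -0.20 over the 54 members. The diet effect was then above 0 for 23 members and below 0 for 31, with a median of -0.013, and the lowest limma adjusted p was 0.526. For probes measured on all arrays, the step moves each diet effect by the same share of that probe's dye effect. The direction of the changes in r and in these counts therefore follows from the step itself. The part of the dye profile in single members' diet effects was not tested.

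Agreement between arrays followed the dye orientation too. Over the 53 members measured on every array, log2 CLA over control had r = 0.63 between arrays 1 and 2 and r = 0.87 between arrays 3 and 4. Between orientations r lay from -0.79 (arrays 1 and 4) to -0.55 (arrays 2 and 3). Over all probes, r of log2 Cy5 over Cy3 was 0.556 between arrays 1 and 2 and 0.811 between arrays 3 and 4. Between orientations it was 0.455 (arrays 2 and 3) to 0.720 (arrays 1 and 4), and CLA over control turns that sign round. The members thus shared this pattern with the whole array. These values are descriptions over probes of the same libraries.

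**Figure D4:**
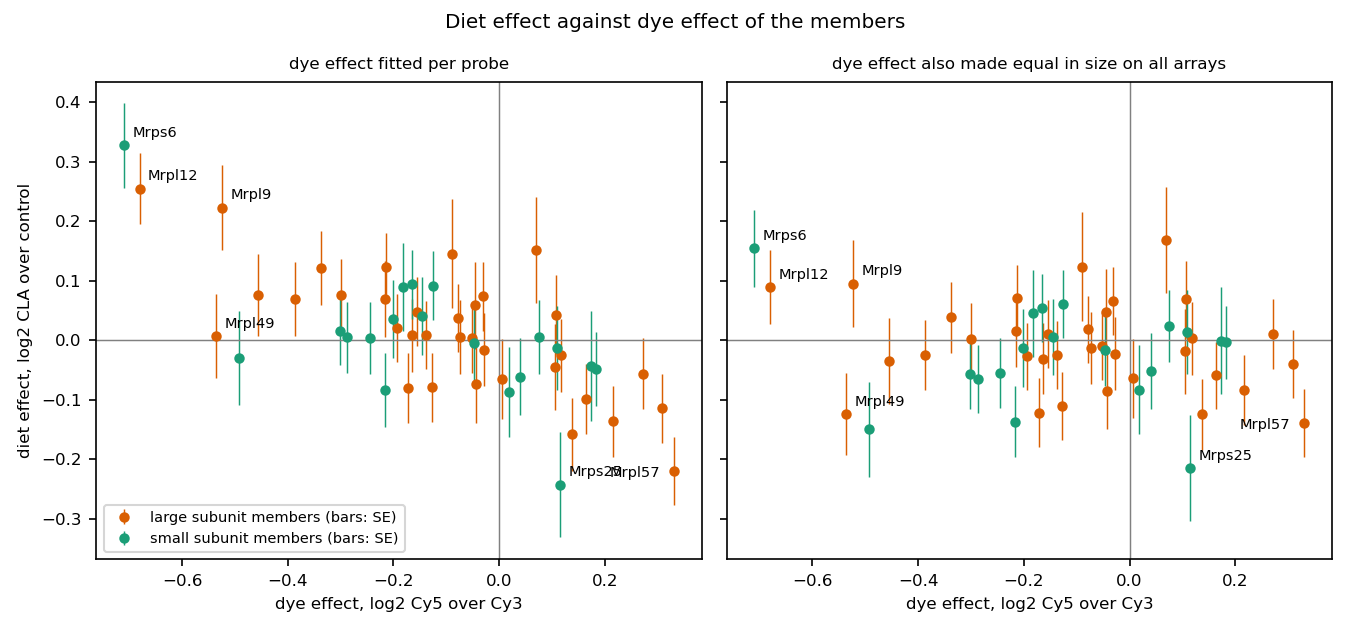
Diet effect (log2 CLA over control, bars are SE) against dye effect (log2 Cy5 over Cy3) of the large-subunit and small-subunit members, with the dye effect fitted per probe (left) and also made equal in size on all arrays (right). With the pseudogene included, r is -0.70 on the left and -0.20 on the right, a change in a direction that the equalising step builds in. Mrps6 moves to 0.15 and Mrpl57 to -0.14.

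In the authors' deposited table of genes called significant in liver there are 775 probes, of which 3 were members. This is 5.45% of the 55 members, against a background of 3.71% of all 20868 probes. They are Mrps25, with a ratio of 0.292 (p = 2.22e-11 in the authors' deposited table), Mrpl27, with 1.32 (p = 0.00068 in the authors' deposited table), and Mrpl49, with 1.45 (p = 0.00106 in the authors' deposited table). Neither the test behind these p-values nor the direction of the ratio is given in the sources used here. The sign of the log2 ratio of the listed probes was set against that of normalised CLA over control. It matched on array 3 for 757 of 775 probes and on array 4 for 743. On array 2 it matched for 597 of 774 and on array 1 for 237 of 763. The ratio is therefore read as CLA over control below, a direction that only arrays 2 to 4 share for most probes.

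Mrps25, a small-subunit protein specific to mitochondria, was near the floor of the arrays. Its spot was well above background on 0 of 4 arrays in CLA samples and on 3 of 4 in control samples. The raw mean signal stood 24.1, 68.6, 49.4 and 53.4 units above local background in CLA samples on arrays 1 to 4, and 58.2, 80.5, 36.4 and 28.3 units in control samples. Before normalisation CLA was thus the lower one on arrays 1 and 2 and the higher one on arrays 3 and 4. After normalisation its signal was 71.6, 61.7, 61.2 and 55.3 in CLA samples, against 65.0, 81.0, 81.0 and 68.6 in control samples, lower with CLA on arrays 2 to 4 and higher on array 1.

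The fitted diet effect of Mrps25 was -0.24 ± 0.09 (SE, n = 4 arrays, limma adjusted p = 0.254). Its mean log2 signal was 5.97 in CLA samples, where it was not well above background on any array, and 6.21 in control samples. Over the alternatives run, its diet effect spanned -1.15 to -0.03, the widest span of the 19 named members tested. With the scanner's own processed signals the diet effect was -1.15 (limma adjusted p = 0.347), with a smaller normexp offset -0.61, and without background subtraction -0.03. Without array 1 it was -0.38 and without array 2 it was -0.11. The scanner's processed signals were 233, 66.1, 40.5 and 45.9 in CLA samples, against 148, 171, 166 and 165 in control samples, and the authors' deposited table gives a log2 ratio of -1.78.

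Mrpl27, the counterpart of a bacterial protein at the catalytic centre, was well above background everywhere. Its signal was 374, 424, 513 and 374 in CLA samples, against 413, 524, 399 and 285 in control samples. Log2 CLA over control was -0.14 and -0.30 on arrays 1 and 2 but 0.36 and 0.39 on arrays 3 and 4, and the authors' deposited table gives 0.40. The diet effect over both orientations was 0.08 ± 0.06 (limma adjusted p = 0.535).

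Mrpl49, specific to the mitochondrial large subunit, showed the same split. Log2 CLA over control was -0.41 and -0.65 on arrays 1 and 2 and 0.44 and 0.65 on arrays 3 and 4, and the authors' deposited table gives 0.54. Its diet effect was 0.0069 ± 0.07 (SE, n = 4 arrays, limma adjusted p = 0.970) with a dye effect of -0.54. Read as CLA over control, the deposited values of Mrpl27 and Mrpl49 had the sign of arrays 3 and 4. Read the other way, they would have the sign of arrays 1 and 2.

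Mrpl49 stood apart in another respect, since its level differed between arrays in both diets together. Its signal was 728, 3096, 10667 and 5554 in CLA samples, against 964, 4869, 7881 and 3542 in control samples. Taken over both channels and relative to each array's median, its log2 level was 2.77, 4.63, 5.79 and 5.08 on arrays 1 to 4. This is a range of 3.02, or 8.14-fold, and only 0.0701% of 19962 probes had as wide a range. The median range was 0.34 for 53 members and 0.32 for all probes. The next members were Mrps6, with a range of 0.96 (1.94-fold), and Mrpl52, with 0.85 (1.80-fold).

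The dimmest members allow little to be said of the diet. Mrpl15 was well above background on 0 arrays in CLA samples and on 2 in control samples, with a diet effect of -0.14 ± 0.06 (limma adjusted p = 0.317) and mean log2 signals of 5.92 in CLA samples and 6.05 in control samples. Mrpl19 was well above background on 1 array in each diet and was not tested. L41-similar had a diet effect of 0.06 ± 0.07 (limma adjusted p = 0.698). Of the members that the naming rule took for their signal, Mrpl52 had 0.07 ± 0.06 and Mrpl20 had -0.02 ± 0.06 (limma adjusted p = 0.596 and 0.916).

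None of the members not yet described passed the test. The pseudogene probe of L48 had a diet effect of 0.11 ± 0.06 (limma adjusted p = 0.394) and a dye effect of -0.31, and could also bind the message of its parent gene. Mrps2, fitted on 3 arrays, had -0.09 ± 0.08 (limma adjusted p = 0.572). The other 33 tested members had diet effects from -0.08 to 0.12, with limma adjusted p from 0.369 to 0.984.

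Other mitochondrial ribosomal proteins lay outside the rule because their probes carry other descriptions. By symbol, 13 were tested and none passed (0.0693% of all probes did), with 7 above 0, 6 below and a median of 0.09. Mrpl46 had a diet effect of 0.22 ± 0.06 (limma adjusted p = 0.169), with ratios of -0.27, -0.41, 0.80 and 0.77, the same arrangement as Mrpl12. Mrpl42 had -0.22 ± 0.08 (limma adjusted p = 0.254), with the signs of the 4 arrays turned round.

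The rest of the mitochondrial translation machinery was matched by symbol only, and none of the matched genes passed the test either. No symbol could be given to 11672 of 20868 probes, so genes without a match may still be on the array. Of 15 translation factors, 2 were tested. Gfm1, the factor that moves the ribosome along the message, had 0.23 ± 0.06 (limma adjusted p = 0.171). Its log2 CLA over control was -0.09, -0.25, 0.58 and 0.69 on arrays 1 to 4, beside a dye effect of -0.40. The initiation factor Mtif2 had 0.01 ± 0.06. Of 22 listed genes for loading tRNAs with amino acids, 3 were tested, all aminoacyl-tRNA synthetases, from -0.08 (Hars2) to -0.0025 (Kars). Of 28 assembly and RNA factors, 12 were tested, 6 above 0 and 6 below, with 3 at an unadjusted p under 0.05 (background 15.9%). Each of the 3 had a higher log2 CLA over control on arrays 3 and 4 than on arrays 1 and 2. These 3 were Ptcd1, which acts on the large ribosomal RNA (0.21 ± 0.06, limma adjusted p = 0.197), the GTPase Noa1 (0.19 ± 0.06, limma adjusted p = 0.209) and the ribosomal RNA methyltransferase Mrm2 (0.20 ± 0.07, limma adjusted p = 0.238).

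Genes for mitochondrial transcription and its nuclear regulators gave 11 tested of 16, with 3 above 0, 8 below and a median of -0.02. Ppargc1a, a coactivator that raises mitochondrial gene expression, had log2 CLA over control of 0.13, -0.25, -0.31 and -0.35 and a diet effect of -0.19 ± 0.07 (SE, n = 4 arrays, limma adjusted p = 0.268). Nrf1 stood at -0.02 ± 0.08, Gabpa at 0.09 ± 0.06, Yy1 at -0.02 ± 0.09 and Tfam, the packaging protein of mitochondrial DNA, at -0.01 ± 0.06. None of the factors whose site letters were searched passed the test.

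Cytosolic ribosomal protein probes, the nearest family for comparison, held no probe that passed the diet test either. Of 48 tested, 19 had a diet effect above 0 and 29 below (median -0.013), beside 32 and 22 for the mitochondrial members. The lowest was Rpl28, at -0.92 ± 0.44 (limma adjusted p = 0.339), named after its value was seen. Its log2 CLA over control was -0.58, -4.00, 0.27 and 0.64 on arrays 1 to 4. The dye effect passed for 19 of the 48 (background 28.0%), of which 17 were brighter in Cy3 (background 15.8%). With the dye effect equalised, which by construction lowers probes brighter in Cy3, 9 were above 0 and 39 below (median -0.05). The mitochondrial members had 23 and 31. The difference between both families was not tested. Among markers of other cell types, 4 exocrine pancreas genes were matched to a probe by symbol, with a median diet effect of 0.49. These genes had a summed log2 level of 9.77 to 11.4 in CLA samples and of 9.64 to 10.2 in control samples. None of them passed the test, and their part in the members' values was not tested. Over the other marker lists the median diet effect ran from -0.34 (red blood cell, 1 gene) to 0.11 (hepatocyte).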

How the data were processed

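Per the file headers, the deposited intensities (mean, local background and processed, the last corrected for background and dye) were extracted per spot with Agilent Feature Extraction A.6.1.1. The deposited files also give a log10 ratio of Cy5 over Cy3 and 0 or 1 flags for 22393 spots on each of 4 arrays, each on its own slide. Log10 ratios are also in the deposited series matrix. Their slope on the scanner's was 1.00 for arrays 1 and 2 but -1.00 for arrays 3 and 4, which makes them CLA over control, with column medians of 0.0010, -0.0023, -0.0020 and -0.0011. The sources used here do not give how the authors made the ratio, p-value and signed fold change (a score) of their deposited table of 775 probes.

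Mean intensities were corrected with normexp (offset 50) and normalised by loess within arrays, giving control spots a weight of 0 (limma 3.58.1, R 4.3.3). The 1075 control spots per array and outlier spots were left out. Probes well above background in at least 1 diet on 2 or more arrays and measured on 3 or more were tested on log2 ratios, with a dye intercept and the diet as +1 (CLA in Cy5) or -1 (CLA in Cy3), and Benjamini-Hochberg adjustment over all 20214 probes at 0.05. Intervals are at 95%. The fit was first tested on simulated data. The number of arrays limits the precision.

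The members, the gene lists and the alternatives were chosen with earlier results of these data known. Members were named by rule: the 6 highest and 6 lowest diet effects, the 3 highest and 3 lowest mean log2 intensities and dye effects, those with 1 sign on all 4 arrays, and any not tested. The members in the authors' deposited table, the L48 pseudogene and Mrps2 were added after their values were seen. Promoter sequences and gene names are from RefSeq (GRCm38.p6). The files name no genome build.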

Additional observations from a re-analysis of the deposited data

How the results depend on the processing

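The count of members passing the diet test was 0 under all 16 settings run with limma, with 0 to 12 members at an unadjusted p under 0.05 and a lowest adjusted p of 0.08 to 0.978. The 12 members came without background subtraction and the 0 with no dye term, where all probes gave 3421 and 293 of 20214. The count over all probes, 14, was 0 with the scanner's processed signals or the authors' log ratios (2763 probes at an unadjusted p under 0.05). It was also 0 without background subtraction (3421), with the small offset (2799) and with equal spread between arrays (1620). With no dye term (293) and with the dye size equalised (1912) it was 0 too. It was 149 with median centring and 52 with the filter on both channels. Without array 1, 2, 3 or 4 it was 40, 2, 62 and 71. The median diet effect ranged from -0.010 (without array 2) to 0.032 (without array 1) when an array was left out. Median centring, which leaves intensity-dependent dye bias in place, moved it to -0.13 (large subunit -0.14), with 43 of 54 members below 0 against an all-probe median of -0.0080. Median centring also turned the sign of Mrpl54 (-0.032), Mrpl15 (0.015), Mrpl49 (-0.24), Mrpl52 (-0.14) and Mrpl27 (-0.079). Mrpl49 was at -0.00044 with the small offset, -0.073 with equal spread and -0.12 equalised, and Mrpl17 at 0.010 equalised. With 1 array left out, Mrpl49 ran from -0.055 (without array 1) to 0.069 (without array 2) and was at -0.046 without array 4, Mrpl20 ran from -0.061 (without array 3) to 0.030 (without array 4), and L41-similar from -0.015 (without array 2) to 0.13 (without array 1). Beyond the construction of each setting, the cause of these moves was not tested. The 16 settings are not independent, since they include the main fit. For the members, the authors' log ratios also gave the same values as the scanner's processed signals. Each array already pairs 1 CLA sample with 1 control sample, and the fit used the ratios within arrays. Arrays of opposite dye orientation could not be paired, because the labels give no replicate numbers that pair them. Signal over background limits Mrps25, Mrpl15, Mrpl19 and L41-similar.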
